A study of Oreochromis niloticus with 18 samples.

Results

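The cerebellum and the thalamus-pituitary of tilapia (Oreochromis niloticus) were compared as tissues, whatever the hormone treatment of the fish, with all 6 Cerebellum and all 6 Thalamus-pituitary RNA-seq libraries, 12 of the 18 in the series. The other 6 libraries are of liver and were used only to give levels. Each region was sampled in 3 treatments with 2 libraries each: Control fish kept without added hormone, and fish given T2 (diiodothyronine) or T3 (triiodothyronine) by immersion, each at 25 nM and over 12 h. All were juvenile fish, aged 4 months by the labels, and sexually undifferentiated by the methods. Each brain library pooled the tissue of 4 fish, so the replicates measure the spread between pools and not between fish. A dissected region holds many cell types, and fewer cells of a type cannot be told apart from less RNA per cell.

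The cerebellum is a cortex of very many small granule cells, whose parallel fibres make synapses with the large Purkinje cells, and in teleost fish it keeps dividing progenitor cells into adult life. The thalamus is part of the diencephalon, which relays sensory signals to other parts of the brain, and the pituitary is the gland that hangs below it and releases hormones such as thyrotropin into the blood. Both regions contain astroglia, myelinated axons, vessels and blood.

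The effective counts (read counts per transcript, estimated and adjusted for transcript length) added up to between 1568851 and 5683139 per cerebellum library and between 2915645 and 5793070 per thalamus-pituitary library. Between 18820 and 20558 of the 26763 transcripts had a count in a cerebellum library and between 20463 and 21082 in a thalamus-pituitary library. Levels are given as CPM, counts scaled to a common library size with TMM factors over the 12 libraries. Differences are given as log2 fold differences, cerebellum minus thalamus-pituitary, with an approximate standard error (SE). This SE is the size of the log2 difference divided by the square root of the F statistic of its test. For transcripts with few counts in a region it can understate the counting error. Only 1646 transcripts were paired with a gene symbol here, from a list that was held in part. These symbols come from the gene list in which the study grouped transcripts by hormone response, tissue by tissue. They were thus not picked for a difference between the regions, but they are a selected set that can depend on tissue. The gene roles given below are known from mammals unless stated.

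The 2 regions stood far apart. Over the 500 transcripts that differed most between each pair of libraries, the root mean square log2 difference was 4.99 at the median of the 36 pairs that cross the regions (4.32 to 5.33). Pairs within the cerebellum had a median of 3.13 (2.67 to 3.43, 15 pairs) and pairs within the thalamus-pituitary one of 2.66 (2.41 to 3.02, 15 pairs), so that no pair across the regions was as close as any pair within one. The correlation of log2 CPM over transcripts, which are not independent replicates, was 0.756 to 0.822 across the regions, 0.924 to 0.956 within the cerebellum and 0.936 to 0.958 within the thalamus-pituitary. The first dimension of these distances carried 56.5% of the variance and separated the regions, and the second carried 7.02% and spread the cerebellum libraries more than the thalamus-pituitary libraries. Among the cerebellum libraries, the T2 replicate 2 (1.45) and the Control replicate 1 (1.22) had the highest values on the second dimension. The paper reports the highest shares of mapped reads in the cerebellum for the same libraries, and a link was not tested.

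**Figure D1:**
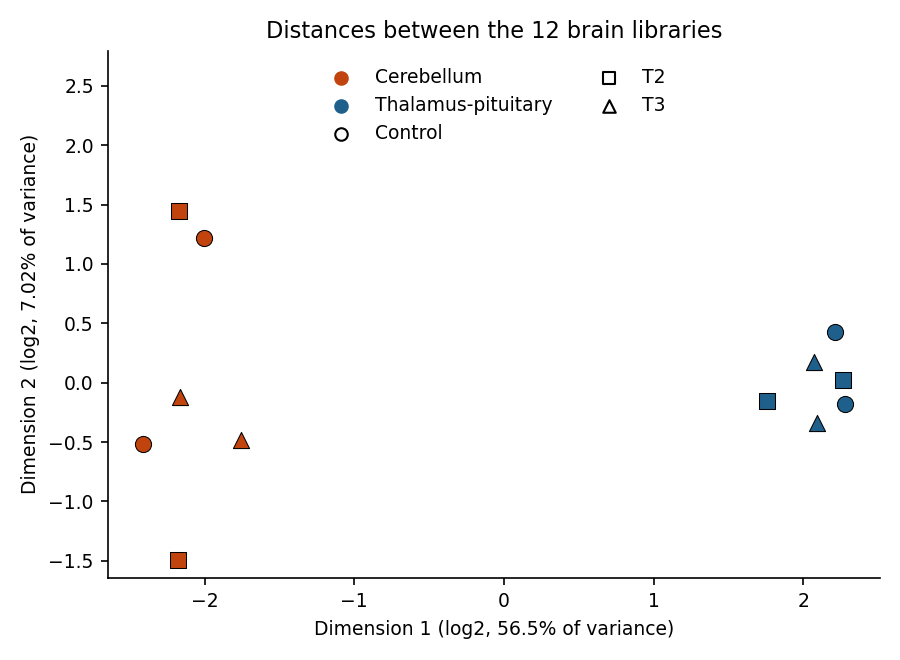
Multidimensional scaling of the 12 brain libraries on the 500 transcripts that differed most between each pair, with dimension 1 (56.5% of the variance) against dimension 2 (7.02%), both in log2 units. Each point is a library, coloured by region and shaped by treatment, and the regions lie at opposite ends of dimension 1 with the 3 treatments mixed within each.

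Of 16200 transcripts tested in 1 fit with treatment as a covariate, 8480 (52.3%) differed between the regions at an adjusted p under 0.05 (edgeR quasi-likelihood test, Benjamini-Hochberg). Of these, 4039 (24.9% of those tested) were higher in the cerebellum and 4441 (27.4%) were higher in the thalamus-pituitary. The differences were larger on the thalamus-pituitary side, with a median log2 difference of -1.04 among its calls against 0.62 among the cerebellum calls. Differences of more than 1 on the log2 scale were found in 1184 transcripts higher in the cerebellum and 2295 higher in the thalamus-pituitary, and differences of more than 3 in 163 and 592. When the test itself asked for a difference of more than 1 (glmTreat), it called 2386 transcripts, 747 higher in the cerebellum and 1639 higher in the thalamus-pituitary. In 2256 transcripts (13.9%) that were called, every cerebellum library lay above every thalamus-pituitary library, and in 3057 (18.9%) the reverse was seen.

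Only 29 of the 755 called transcripts with a log2 difference over 3 had a symbol, so the named genes stand for a small share of what separates the regions. Among the 1406 tested transcripts with a symbol, 650 (46.2%) were called, of which 375 (26.7%) were higher in the cerebellum and 275 (19.6%) lower. The 12 with the largest difference in each direction were taken from those with no overlap between the regions and at least 5 CPM on average in the higher one, which left 177 and 137 transcripts to choose from.

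The genes highest in the cerebellum included FAT2, GRID2IP and CACNG7, which belong to the list of cerebellar neurons. FAT2, a giant cadherin found on the parallel fibres of mammalian granule cells, was at 1584, 1968 and 2337 CPM in the cerebellum (lowest, median and highest of 6 libraries) and at 2.27, 13.5 and 88.0 CPM in the thalamus-pituitary. All cerebellum libraries lay far above, and within the thalamus-pituitary the T2 replicate 1 (88.0 CPM) and both T3 libraries (22.7 and 74.4 CPM) lay above the other 3 (2.27 to 4.35 CPM). The log2 difference was 6.21 (SE 0.76, adjusted p = 1.37e-05). Without the T2 replicate 1 of the thalamus-pituitary it was 7.13, and without all 3 of these libraries 9.41. Both rises follow from leaving out its highest libraries there, and the value of 9.41 rests on no T3 library, as explained below.

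GRID2IP (delphilin), a scaffold that binds the delta-2 glutamate receptor of Purkinje cells, ranged from 228 to 296 CPM (median 262) in the cerebellum and from 2.54 to 16.3 CPM (median 5.62) in the thalamus-pituitary. The regions did not overlap, which the choice of these genes required, and the log2 difference was 5.19 (SE 0.29, adjusted p = 6.53e-09). CACNG7, an auxiliary subunit of AMPA-type glutamate receptors, ranged from 166 to 274 CPM (median 223) against 9.80 to 19.9 CPM (median 14.1). Its log2 difference of 3.92 (SE 0.10, adjusted p = 1.16e-11) had one of the smaller errors among the named genes.

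SNAP25 is part of the SNARE complex that fuses synaptic vesicles with the membrane, and 2 transcripts carried its name. One of them, ENSONIT00000003702, ranged from 779 to 1940.2 CPM (median 1251) in the cerebellum and from 4.07 to 76.3 CPM (median 12.4) in the thalamus-pituitary, a log2 difference of 6.05 (SE 0.55, adjusted p = 8.13e-07), or 6.90 without the T2 replicate 1 of the thalamus-pituitary, its highest library there. The other, ENSONIT00000001609, ranged from 822 to 1490.1 CPM in the cerebellum and from 1310.5 to 2334 CPM in the thalamus-pituitary and went the other way, with a log2 difference of -0.60 (SE 0.09, adjusted p = 6.19e-05). Reads that fit both transcripts were shared between them by the authors' quantification, so the split within such pairs is less certain than their sum.

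The remaining cerebellum-high genes included a neuropeptide, a peptide receptor and regulators. UCN3 (urocortin 3, a peptide of the corticotropin-releasing hormone family) ranged from 56.8 to 99.7 CPM (median 60.8) in the cerebellum, where both T3 libraries were the highest, and from 0 to 4.58 CPM (median 0.962) in the thalamus-pituitary. Its log2 difference was 5.68 (SE 0.38, adjusted p = 4.73e-08), and 6.53 without the T2 replicate 1 of the thalamus-pituitary, its highest library there. OPRD1, the delta opioid receptor, ranged from 40.9 to 86.1 CPM against 4.47 to 7.10 CPM (log2 difference 3.41, SE 0.15, adjusted p = 6.30e-10). ANKIB1, which carries ankyrin repeats and a ubiquitin ligase domain, ranged from 1496 to 1870 CPM against 108 to 208 CPM (log2 difference 3.62, SE 0.12). That UCN3, OPRD1 and ANKIB1 did not overlap between the regions follows from how these genes were chosen. HEPACAM2, an adhesion protein of the immunoglobulin family, varied more, from 3.23 to 36.4 CPM in the cerebellum against 0 to 0.916 CPM, and its log2 difference moved from 5.57 (SE 0.66) to 6.59 without the T3 replicate 1 of the thalamus-pituitary. MARCH4, a membrane-bound ubiquitin ligase, COL24A1, a fibrillar collagen, and USH1C (harmonin, a scaffold of the hair cell bundle) completed the group with log2 differences of 3.66 (SE 0.48), 3.36 (SE 0.23) and 3.29 (SE 0.43).

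Of the genes highest in the thalamus-pituitary, RIN1, COMP and NR5A2 were close to absent from the cerebellum. RIN1, an effector of Ras that acts on the endosomal GTPase Rab5, ranged from 55.9 to 115 CPM (median 76.8) in the thalamus-pituitary, while the 6 cerebellum libraries together held 3 counts of it. The ratio of counts, corrected for the totals, was 639.8 (95% exact interval 219 to 3105, counting error only). COMP (cartilage oligomeric matrix protein) ranged from 87.9 to 181 CPM (median 111) against 0 to 0.807 CPM, a log2 difference of -7.77 (SE 0.20, adjusted p = 1.49e-11). NR5A2, a nuclear receptor known from liver and pancreas, kept to 17.1 to 21.3 CPM in the thalamus-pituitary and was found in 1 cerebellum library only, the Control replicate 1, with 3 counts, giving a count ratio of 145.6 (49.5 to 708). The fitted log2 difference of NR5A2 moved from -6.91 (SE 0.44) to -9.31 when that library was left out.

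PLCB1, PDE2A and KCNC4, of the list of excitability and second messenger genes, were among the 12 in this direction. PLCB1 (ENSONIT00000001755), a phospholipase C that acts downstream of receptors coupled to Gq, ranged from 189 to 436 CPM (median 319) in the thalamus-pituitary and from 1.28 to 18.2 CPM (median 6.44) in the cerebellum, with a log2 difference of -5.34 (SE 0.25, adjusted p = 1.35e-09). Of the 2 tested transcripts with the name PLCB1 only 1 was called, so this difference is not that of the symbol as a whole. PDE2A, a phosphodiesterase stimulated by cyclic GMP, ranged from 124 to 187 CPM against 4.02 to 13.8 CPM (log2 difference -4.26, SE 0.19, adjusted p = 9.35e-10). KCNC4, a potassium channel of the Shaw family, ranged from 33.9 to 47.3 CPM against 0.269 to 4.33 CPM (log2 difference -4.40, SE 0.30, adjusted p = 4.99e-08). For all 3 the lowest thalamus-pituitary library was at least several times above the highest cerebellum library.

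PMP2, a fatty acid-binding protein of myelin, ranged from 28.2 to 97.0 CPM against 1.59 to 7.13 CPM (log2 difference -4.04, SE 0.28), and its lowest thalamus-pituitary library was the T2 replicate 1. PTPRU, a receptor tyrosine phosphatase, ranged from 102 to 139 CPM against 8.46 to 16.2 CPM (log2 difference -3.25, SE 0.14). RTN4RL1, a receptor of the Nogo receptor family, ranged from 39.8 to 49.1 CPM against 3.38 to 5.75 CPM (log2 difference -3.24, SE 0.12). Of the 3 others, MORC4 had a log2 difference of -3.86 (SE 0.31), UBA7, which activates the ubiquitin-like protein ISG15, one of -3.39 (SE 0.41), and IL13RA2, a decoy receptor of interleukin 13, one of -3.28 (SE 0.47). IL13RA2 reached no more than 12.6 CPM in any brain library.

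**Figure D2:**
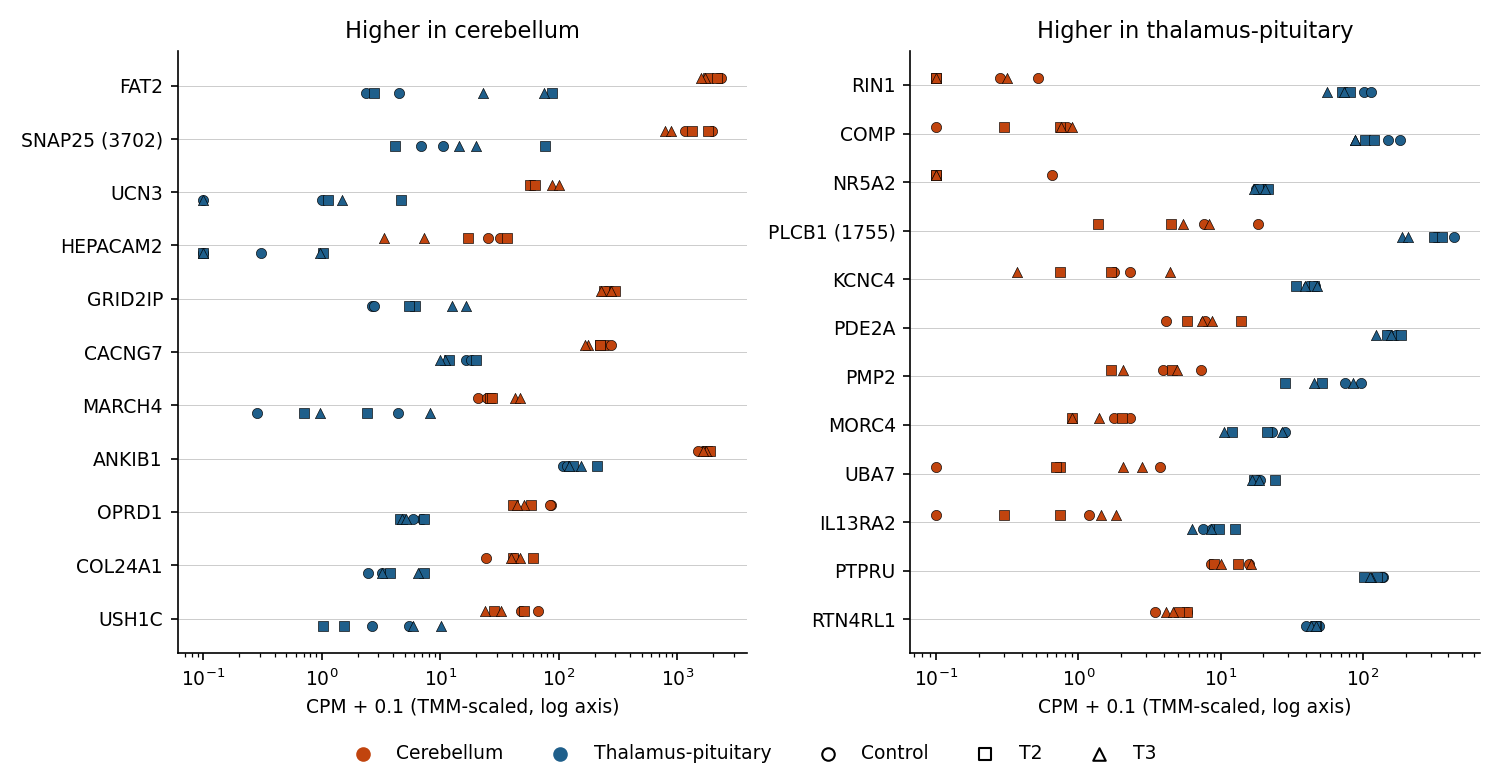
Levels of 23 of the 24 transcripts with a symbol that differed most (11 higher in the cerebellum, 12 higher in the thalamus-pituitary), in CPM + 0.1 on a log axis, with 1 point per library coloured by region and shaped by treatment (numbers after SNAP25 and PLCB1 are the last digits of the transcript identifiers). In each row the 6 libraries of the higher region lie above the 6 of the other, as the choice of these transcripts required, and FAT2 spreads from 2.27 to 88.0 CPM within the thalamus-pituitary.

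The largest differences in each direction belonged to transcripts without a symbol. ENSONIT00000016566 ranged from 1332 to 2084 CPM in the cerebellum and from 0 to 9.62 CPM in the thalamus-pituitary, where the T2 replicate 1 was the highest and the other 5 libraries had at most 0.824 CPM (log2 difference 9.72, SE 0.47, and 11.47 without that library). ENSONIT00000021705 ranged from 2.54 to 23.5 CPM in the cerebellum and had no count in the thalamus-pituitary, which makes it at least 129-fold higher against a floor of 3 counts over the group. In the other direction ENSONIT00000026383 ranged from 133 to 323 CPM in the thalamus-pituitary and had no count in the cerebellum, at least 1571-fold higher by the same floor. ENSONIT00000023609 was between 1592 and 3448 CPM in 5 thalamus-pituitary libraries and 21.1 CPM in the T2 replicate 1, and had 13 counts in all 6 cerebellum libraries together (log2 difference -11.76, SE 1.22).

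Because the T2 replicate 1 of the thalamus-pituitary stood apart in several of these, transcripts restricted to a region were followed through all libraries. They were picked on the 4 Control libraries alone, as those with at least 50 CPM in both Controls of one region and at most 1% of that level in the other, so their Control values are low by choice. The 17 cerebellum-restricted transcripts, among them FAT2, GRID2IP, UCN3 and SNAP25 (ENSONIT00000003702), summed in the thalamus-pituitary to 0.400% and 0.361% of the cerebellum Control level in the Control libraries. They summed to 2.99% and 0.270% in the T2 libraries and to 0.773% and 1.24% in the T3 libraries, replicate 1 first. All 17 were higher in the T2 replicate 1 than in either Control library. The 32 thalamus-pituitary-restricted transcripts summed to 76.4% and 124% of their Control mean in the Control libraries, 28.5% and 86.1% with T2 and 107% and 79.5% with T3, and to 0.115% to 0.393% in the cerebellum. The low sum in the T2 replicate 1 came from 7 of the 32, ENSONIT00000023609 among them, which were there at 21.1 CPM or less and under 5% of their Control mean. Some of the 7 had no count in that library and, not passing the filter, were not tested for a regional difference. Examples are ENSONIT00000008159 and ENSONIT00000011566, with means of 1154 and 1223 CPM in the thalamus-pituitary. The other 25 summed to 91.0% of their Control mean in that library and to 87.7% to 105% in the other 5, and 9 of the 32 had their lowest level in it. These 7 were picked out after their values were seen, and the cause was not tested.

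**Figure D3:**
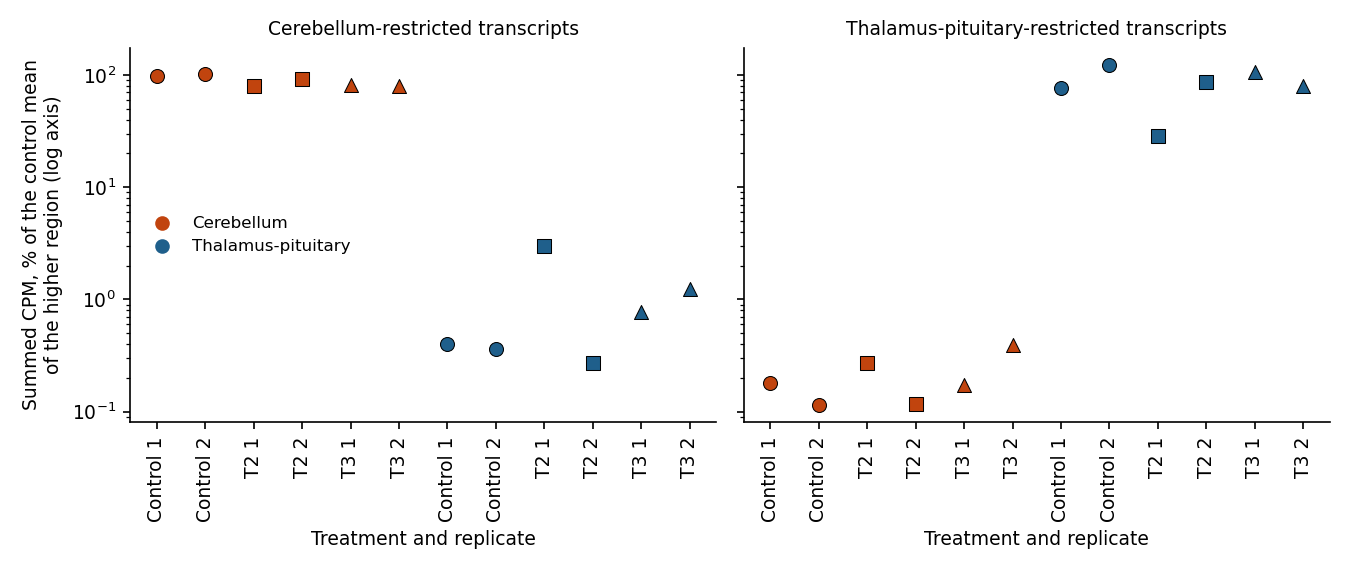
Summed CPM of 17 cerebellum-restricted (left) and 32 thalamus-pituitary-restricted (right) transcripts in each library, as a percentage of the Control mean of the region they were picked in, on a log axis. Among the thalamus-pituitary libraries the T2 replicate 1 is the highest on the left (2.99%) and the lowest on the right (28.5%, where 7 of the 32 transcripts were nearly missing).

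Without the 3 thalamus-pituitary libraries with the most RNA of the cerebellum-restricted list (the T2 replicate 1 and both T3 libraries), 6564 of 17169 transcripts were called, 2914 higher in the cerebellum and 3650 higher in the thalamus-pituitary. Of the 8480 calls with all libraries, 6274 were also called without these 3, all in the same direction. Of the named genes, COMP went to -8.38, USH1C to 4.07, IL13RA2 to -4.12, UCN3 to 6.40, GRID2IP to 6.20, SNAP25 (ENSONIT00000003702) to 7.79 and HEPACAM2 to 8.16. The 3 libraries were chosen after seeing the data, by a list that holds FAT2, UCN3, GRID2IP and that SNAP25 transcript. Larger differences of its members follow in part from that choice. With no T3 library left in the thalamus-pituitary, the cerebellum T3 libraries no longer bore on the fitted regional difference. For HEPACAM2 these were its lowest cerebellum libraries (3.23 and 7.15 CPM).

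Gene lists were used to describe cell types and processes, each by the transcripts that passed the test, to be read against the background of tested transcripts with a symbol, 26.7% higher in the cerebellum and 19.6% higher in the thalamus-pituitary. In the list of cerebellar neurons, all 8 members were tested, and 6 were higher in the cerebellum and 2 lower, with a median log2 difference of 2.02 (all transcripts tested, -0.01). MTSS1, a regulator of actin in Purkinje cell dendrites, ranged from 23.7 to 40.6 CPM against 9.25 to 13.4 CPM (log2 difference 1.47, SE 0.14). CNTN2, an axonal adhesion protein, was higher in the cerebellum by 0.67 (SE 0.18, adjusted p = 0.00776) with overlapping libraries. The 2 members that went the other way were DAB1, which relays the Reelin signal that guides migrating neurons (17.2 to 21.9 CPM in the cerebellum and 39.0 to 50.7 CPM in the thalamus-pituitary, log2 difference -1.19, SE 0.09), and HAPLN4, a link protein of perineuronal nets (log2 difference -0.74, SE 0.29, adjusted p = 0.0477). The call of HAPLN4 was lost when any of 10 of the 12 libraries was left out. Without the 3 libraries named above, 6 members of the list were called, and CNTN2 and HAPLN4 were not.

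The result for the list of diencephalic and neuroendocrine genes depended on which members were tested. Of its 17 transcripts 7 were too low to be tested, among them those of CARTPT, PYY, POU4F2 and DMBX1, and of the 10 tested 3 were higher in the cerebellum, 5 did not pass and 2 were higher in the thalamus-pituitary (median log2 difference 0.30). With DESeq2, which tested all 17, the split was 3 against 5 and the median -0.67, and without the 3 libraries named above the median was -0.18. The 3 higher in the cerebellum were UCN3 and OPRD1, described above, and INSM1, a zinc finger factor of neuroendocrine cells and of dividing neuronal progenitors, which ranged from 57.5 to 95.6 CPM against 9.13 to 13.8 CPM (log2 difference 2.83, SE 0.12, adjusted p = 7.19e-10). Of the 2 higher in the thalamus-pituitary, PTGDS, a prostaglandin D synthase of the brain's coverings and glia, ranged from 130.0 to 301 CPM against 108 to 205 CPM (log2 difference -0.68, SE 0.12), and TBX2, a T-box transcription factor, from 3.72 to 9.70 CPM against 1.52 to 4.23 CPM (log2 difference -1.20, SE 0.33, adjusted p = 0.00757, not called without the 3 libraries). No transcript could be paired with the name of a pituitary hormone, so the presence of pituitary tissue in the thalamus-pituitary libraries was not checked by its defining genes.

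The astroglia and radial glia were divided. SLC1A2, the main glutamate transporter of astroglia, was higher in the thalamus-pituitary (2248 to 2607 CPM against 1403 to 1890.1 CPM, log2 difference -0.58, SE 0.05, adjusted p = 1.28e-06), as was SPARCL1, a secreted matrix protein (log2 difference -0.78, SE 0.22, adjusted p = 0.0105). FABP7, the fatty acid-binding protein of radial glia, was higher in the cerebellum (130.2 to 379 CPM against 87.4 to 170 CPM, log2 difference 0.92, SE 0.15, adjusted p = 0.000248), as was SOX9, a transcription factor of glia and their progenitors (log2 difference 0.67, SE 0.16, adjusted p = 0.00377). The other 4 of the 8 members, ALDH1L1, KCNJ10, SLC6A11 and SLC1A3, had log2 differences between -0.33 and 0.60 and did not pass. Of the 4, SLC6A11, a GABA transporter, had one of -0.33 (SE 0.20) and KCNJ10, a potassium channel, one of 0.60 (SE 0.77), so that differences of some size were not detectable in them.

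All 5 transcripts of the myelin and oligodendrocyte list were called, 3 higher in the cerebellum and 2 lower. The enzyme CNP, a component of the myelin sheath, was higher in the thalamus-pituitary (83.0 to 132 CPM against 49.8 to 91.8 CPM, log2 difference -0.64, SE 0.08), with PMP2. MYT1, a zinc finger factor that is also used by newly formed neurons, was higher in the cerebellum (45.3 to 138 CPM against 8.52 to 19.0 CPM, log2 difference 2.75, SE 0.25, adjusted p = 1.01e-06), with both transcripts of TTYH2, a chloride channel family member (log2 differences 0.87 and 0.71). The 2 members higher in the thalamus-pituitary are myelin proteins, and MYT1 and TTYH2 are not parts of the sheath, a division made after the values were seen. The libraries of CNP overlapped between the regions, and the median log2 difference of the whole list was 0.71.

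Neuronal genes outside the cerebellar list leaned to the thalamus-pituitary where they concerned axons and signalling, and were mixed where they concerned synapses. Of 20 tested transcripts of axon and neuronal cytoskeleton genes, 12 were higher in the thalamus-pituitary, 1 in the cerebellum and 7 did not pass (median log2 difference -0.68). The 12 include 3 transcripts of DSCAM and 2 of MARCKSL1, so they are not 12 separate genes. GAP43, a protein of growing axon ends, ranged from 134 to 354 CPM in the thalamus-pituitary against 51.7 to 109.8 CPM in the cerebellum (log2 difference -1.54, SE 0.19). DSCAM, an adhesion protein that sorts neurites, was higher in the thalamus-pituitary in all 3 of its transcripts, with log2 differences of -1.68 (SE 0.09), -1.65 (SE 0.10) and -1.40 (SE 0.43). DBN1, an actin-binding protein of dendritic spines, had one of -0.86 (SE 0.10). The 1 higher in the cerebellum was SRGAP2, a regulator of spine maturation (log2 difference 1.19, SE 0.19). GAP43, MARCKSL1 and SRGAP2 were added to those the naming rule gives after their values were seen.

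Of 15 synapse transcripts, 6 were higher in the cerebellum, 4 did not pass and 5 were higher in the thalamus-pituitary. HOMER1, a scaffold of the postsynaptic density that ties glutamate receptors to calcium stores, ranged from 60.2 to 124 CPM in the thalamus-pituitary against 10.6 to 16.1 CPM (log2 difference -2.79, SE 0.14, adjusted p = 1.81e-09). ADAM22, a receptor of the synaptic protein LGI1, and OLFM1, a secreted protein that binds AMPA receptors, were both higher in the cerebellum by 0.69 (SE 0.06 each). Of 18 tested transcripts of excitability and second messenger genes, 7 were higher in the thalamus-pituitary, 3 in the cerebellum and 8 did not pass (median log2 difference -0.33). The largest were PLCB1, KCNC4 and PDE2A, above, and in the other direction ATP2A3, a calcium pump of the endoplasmic reticulum, ranged from 561 to 775 CPM in the cerebellum against 226 to 401 CPM (log2 difference 1.06, SE 0.08).

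Genes of cell division were mostly higher in the cerebellum. Of 20 tested transcripts of cell division and DNA replication genes, 14 were higher in the cerebellum, 4 did not pass and 2 were higher in the thalamus-pituitary, with a median log2 difference of 1.09. MKI67, the nuclear protein of cycling cells, ranged from 48.7 to 129 CPM (median 64.2) in the cerebellum and from 5.41 to 14.3 CPM (median 7.68) in the thalamus-pituitary, a log2 difference of 3.18 (SE 0.15, adjusted p = 1.36e-09). TOP2A, the topoisomerase of dividing cells, ranged from 38.3 to 111 CPM against 10.1 to 26.1 CPM (log2 difference 2.16, SE 0.14), KIF4A, a mitotic kinesin, from 16.9 to 40.6 CPM against 3.46 to 7.98 CPM (2.31, SE 0.13), and MCM2, a subunit of the replicative helicase, from 32.3 to 64.3 CPM against 9.13 to 14.2 CPM (1.83, SE 0.13). None of these 4, the members with the smallest p-values, overlapped between the regions. In the list, 10 of the 20 tested transcripts had every cerebellum library above every thalamus-pituitary library, and 1 the reverse. Among the 1406 tested transcripts with a symbol these numbers were 178 and 140. The 2 members that went the other way were CIT, citron kinase (log2 difference -1.58, SE 0.22), and SKA2, a kinetochore protein (log2 difference -0.35, SE 0.11, adjusted p = 0.0190), both named after their values were seen. Without the 3 libraries of the thalamus-pituitary, 15 members were higher in the cerebellum and 1 lower.

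**Figure D4:**
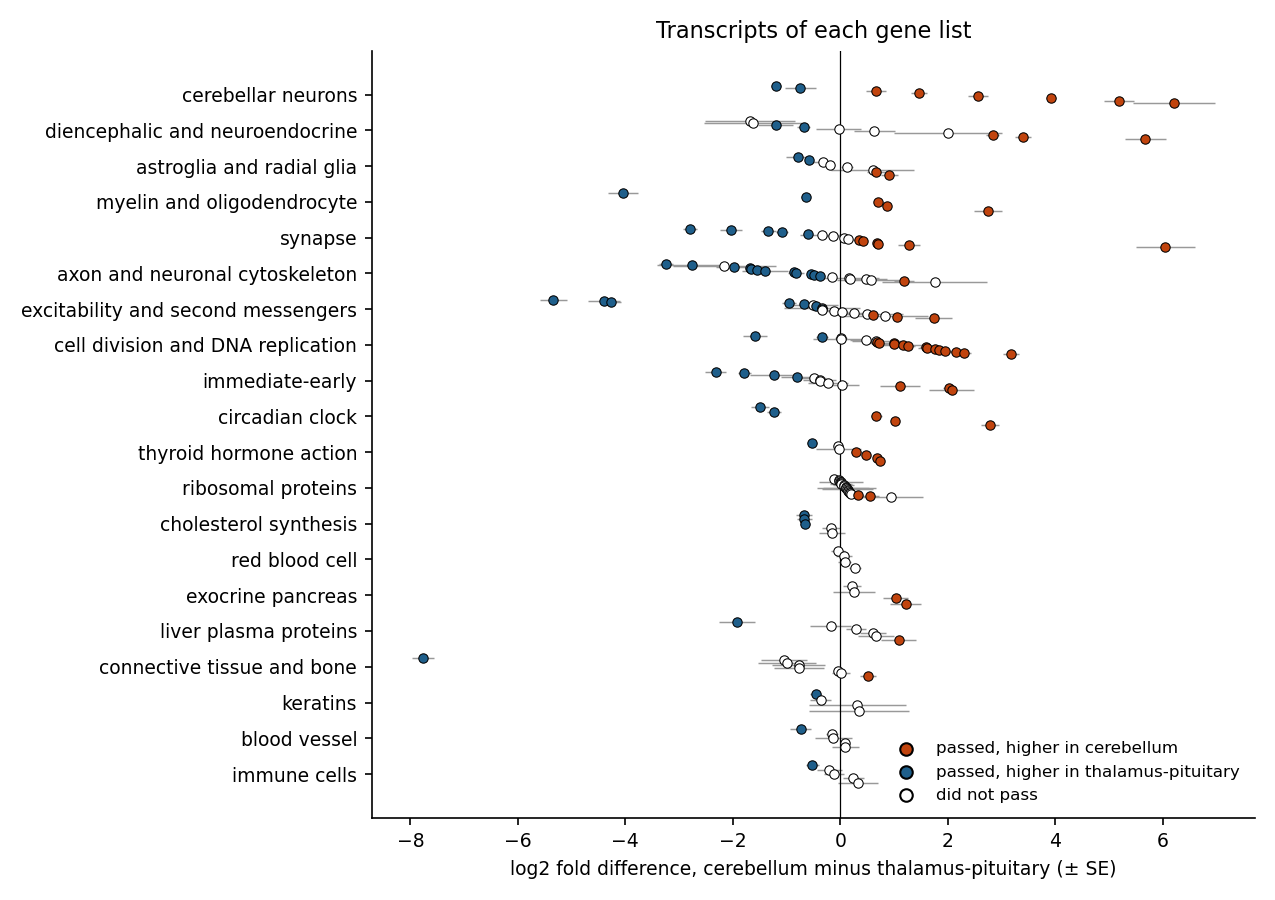
Log2 fold differences (cerebellum minus thalamus-pituitary, with SE) of the tested transcripts of each gene list, filled where the adjusted p was under 0.05 and open where it was not. Cell division transcripts lie mostly to the right (14 of 20 higher in the cerebellum), axon transcripts mostly to the left (12 of 20 higher in the thalamus-pituitary) and ribosomal proteins close to 0.

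Genes of the circadian clock and the immediate-early genes differed in both directions. All 5 clock transcripts were called. ARNTL2, a partner of CLOCK, ranged from 28.8 to 63.3 CPM in the cerebellum against 2.06 to 9.47 CPM (log2 difference 2.79, SE 0.16, adjusted p = 1.03e-08), and BHLHE40, a repressor of the clock, was higher there by 1.02 (SE 0.08), with TEF, a clock output factor. PER2, a repressor of the clock, and NPAS2, a partner of ARNTL proteins, were higher in the thalamus-pituitary, with log2 differences of -1.24 (SE 0.13) and -1.49 (SE 0.17). Of 12 tested immediate-early transcripts, 3 were higher in the cerebellum, 5 did not pass and 4 were higher in the thalamus-pituitary. JUN, a subunit of the AP-1 factor, ranged from 51.6 to 63.9 CPM in the cerebellum against 11.5 to 17.6 CPM (log2 difference 2.02, SE 0.11), whereas PLK2, a kinase induced by neuronal activity, ranged from 128 to 191 CPM in the thalamus-pituitary against 35.5 to 52.6 CPM (log2 difference -1.78, SE 0.12). Of the 2 other members with the smallest p-values, 1 transcript of JUNB was higher in the thalamus-pituitary (ENSONIT00000026495, log2 difference -2.32, SE 0.20) and 1 of IER2 in the cerebellum (ENSONIT00000026178, log2 difference 2.07, SE 0.41), the latter with overlapping libraries. JUNB had 2 tested transcripts, both called higher in the thalamus-pituitary, whereas only 1 of the 2 tested transcripts of IER2 was called. The time of day at which tissue was taken is not given in the sources used here.

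Thyroid hormone acts in cells through transporters, nuclear receptors that pair with retinoid X receptors, and the coregulators these recruit. Of the 7 transcripts of the thyroid hormone action list, 4 were higher in the cerebellum, 2 did not pass and 1 was higher in the thalamus-pituitary. EP300, a coactivator that acetylates histones, ranged from 233 to 284 CPM in the cerebellum against 145 to 162 CPM (log2 difference 0.74, SE 0.06, adjusted p = 1.48e-07). RXRB, a retinoid X receptor, ranged from 67.7 to 80.6 CPM against 40.8 to 55.1 CPM (log2 difference 0.69, SE 0.07, adjusted p = 1.35e-06), and NCOR1, the corepressor of receptors without hormone, from 143 to 182 CPM against 109 to 126 CPM (log2 difference 0.49, SE 0.07, adjusted p = 3.66e-05). In these 3 the regions did not overlap, although none of the differences reached 1 on the log2 scale. KAT2B, a histone acetyltransferase, passed by a small margin (log2 difference 0.30, SE 0.10, adjusted p = 0.0250) and its call was lost when any of 4 libraries was left out. CARM1, a coactivator, and CRYM, which binds T3 in the cytosol, had log2 differences of -0.04 (SE 0.09) and -0.03 (SE 0.42).

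Lists of general and non-neural genes were described in the same way. Of 22 transcripts of ribosomal proteins 2 were called, RPL27A and RPL30, both higher in the cerebellum (log2 differences 0.55 and 0.33, RPL30 not called without the 3 libraries), and the list's median log2 difference was 0.11. Of 5 cholesterol synthesis transcripts, DHCR7, MSMO1 and FDPS, each an enzyme of that pathway, were higher in the thalamus-pituitary by similar amounts (log2 differences -0.66, -0.66 and -0.67) and 2 did not pass. Markers of blood, vessels and other tissues were read in the same way. No red blood cell transcript of 4 was called, their summed level was 2940 to 7181 CPM in the cerebellum and 2782 to 7477 CPM in the thalamus-pituitary, and the beta globin HBB had an adjusted p of 0.0541 (log2 difference 0.28, SE 0.11). With DESeq2, and with RLE size factors, 1 red blood cell transcript was called, and DESeq2 called 5 ribosomal transcripts. In the blood vessel list 1 of 5 was called (STAB2, log2 difference -0.73, SE 0.20, not called without the 3 libraries) and in the immune list 1 of 5 (HLA-DRA, -0.52, SE 0.12), both higher in the thalamus-pituitary.

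In the keratin list 1 of 4 was called (KRT34, log2 difference -0.46, SE 0.11). Of 8 connective tissue transcripts, COMP was higher in the thalamus-pituitary and ACAN, the aggrecan of cartilage and perineuronal nets, in the cerebellum (log2 difference 0.52, SE 0.15), while 6 did not pass, among them the collagens COL1A1 and COL1A2. The summed level of this list was 139 to 271 CPM in the cerebellum and 239 to 715 CPM in the thalamus-pituitary. COL1A1 (ENSONIT00000008028) and COL1A2 had log2 differences of -1.04 (SE 0.43) and -0.99 (SE 0.55), and -0.47 and -0.57 without the Control replicate 1 of the thalamus-pituitary. Low levels of exocrine pancreas genes (summed 42.0 to 102 CPM in the cerebellum, 30.5 to 61.2 CPM in the thalamus-pituitary, 7 of 11 too low to be tested) and of liver plasma proteins (26.7 to 55.8 and 26.3 to 44.1 CPM, 5 of 11 too low) were found in both regions. Of these, CELA1 (ENSONIT00000008652), a digestive enzyme, and FGG, a fibrinogen chain, were higher in the cerebellum and F9, a clotting factor, in the thalamus-pituitary, and FGG was not called without the 3 libraries. How RNA of these tissues came into the brain libraries was not tested.

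The difference between the regions was then fitted within each treatment, in 2 cerebellum and 2 thalamus-pituitary libraries that the other treatments did not share. In Control fish 4460 of 16952 transcripts were called (26.3%, 1818 or 10.7% higher in the cerebellum and 2642 or 15.6% higher in the thalamus-pituitary), with T2 4546 of 16513 (27.5%, 1944 or 11.8% and 2602 or 15.8%) and with T3 4557 of 16445 (27.7%, 1953 or 11.9% and 2604 or 15.8%). Of 15649 transcripts tested in all 3 and in the joint fit, 6004 were called in at least 1 treatment and 3019 in all 3, each of the 3019 in the same direction, with 1164 higher in the cerebellum and 1855 higher in the thalamus-pituitary. Only 2 transcripts were called in opposite directions in a pair of treatments. The log2 differences correlated over these transcripts, which are not independent replicates, at 0.891 between Control and T2, 0.891 between Control and T3 and 0.876 between T2 and T3. With 2 libraries per arm these counts moved with single libraries: within T2 they were 2484 without the replicate 1 of the thalamus-pituitary and 2142 without its replicate 2, and within T3 2696 without the replicate 1 of the thalamus-pituitary.

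The 24 genes named for the size of their difference were chosen for not overlapping over all 12 libraries, which fixes their direction within each treatment. Of them 23 passed the test in every treatment, which also follows in part from choosing them by size over the same libraries. The exception was HEPACAM2, with a log2 difference of 7.82 in Control, 5.80 with T2 and 3.26 with T3 (adjusted p = 0.0655). CACNG7 was almost the same in each, at 3.93, 3.83 and 4.03, as was RTN4RL1 at -3.22, -3.14 and -3.36. FAT2 was at 9.38, 5.47 and 5.18 and GRID2IP at 6.62, 5.58 and 4.11, following the levels in the thalamus-pituitary libraries given above.

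**Figure D5:**
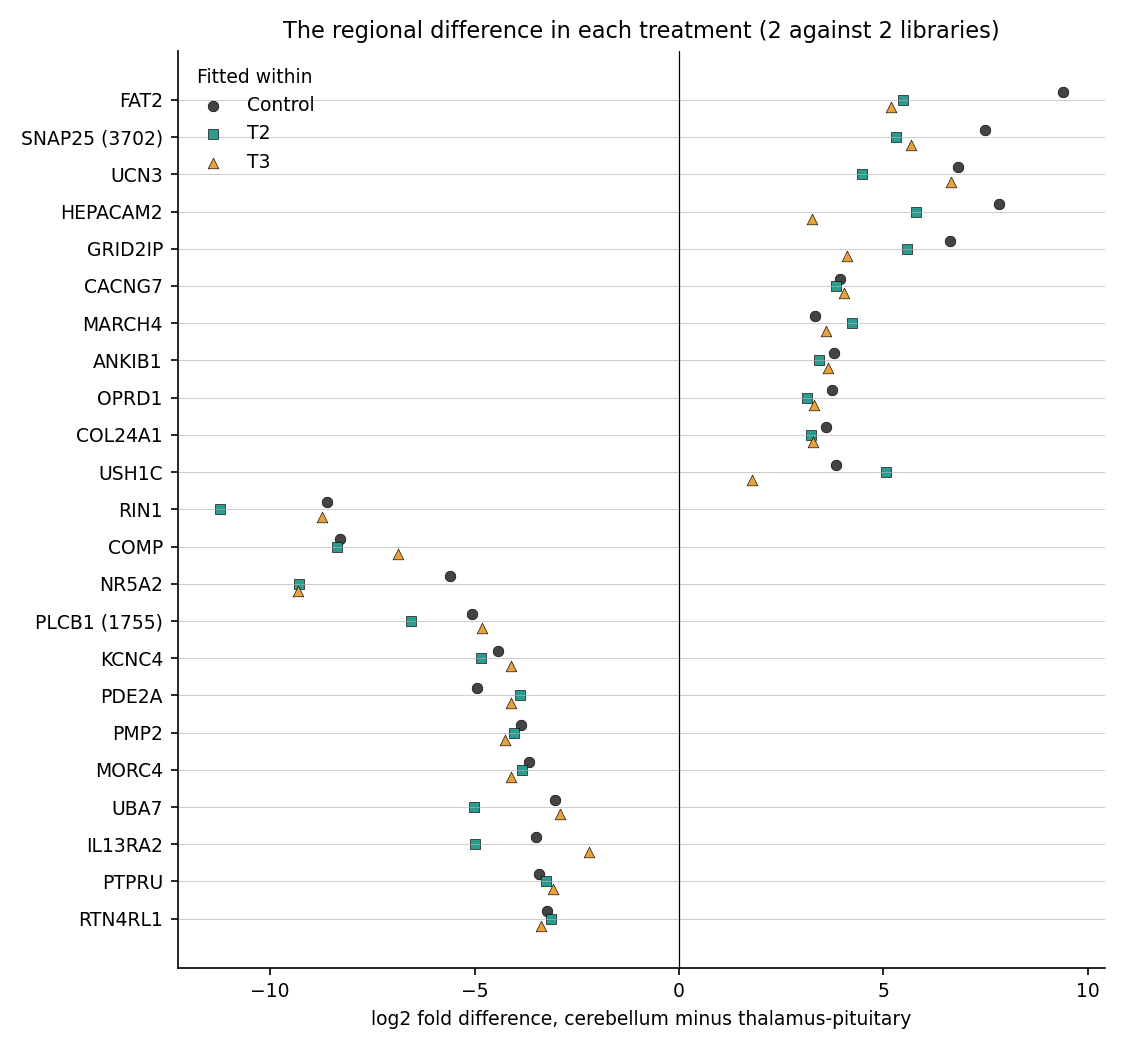
Log2 fold differences (cerebellum minus thalamus-pituitary) of 23 of the 24 named transcripts, fitted separately in Control, T2 and T3 fish with 2 against 2 libraries. The side of 0 is fixed by how the genes were chosen, and the points lie close together for CACNG7 (3.93, 3.83 and 4.03) and apart for FAT2 (9.38, 5.47 and 5.18).

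Whether the regional difference depended on the hormone was tested by the interaction of region and treatment. No transcript of 16200 (0.0%) passed for both hormones together, and 641 had an unadjusted p under 0.05. For T2 alone and T3 alone 0 passed (0.0% each), with 667 and 722 under that unadjusted level. All of these unadjusted counts are under 1 in 20 of the transcripts tested, the share that a level of 0.05 gives by chance. With 2 libraries per region and treatment the test can miss interactions, so it does not show that the regional difference is independent of the hormone. DESeq2's likelihood ratio test called 8 of 24526 (0.0326%). The symbol-paired transcript with the smallest p was GRID2IP (edgeR adjusted p = 0.223, and 0.0762 for T3 alone), which DESeq2 called at an adjusted p of 1.77e-07. In the thalamus-pituitary it was at 2.54 and 2.68 CPM in the Control libraries, 5.96 and 5.29 CPM with T2 and 16.3 and 12.5 CPM with T3, and in the cerebellum between 228 and 296 CPM in all treatments. Both T3 libraries lay above the others in the thalamus-pituitary. These are also 2 of the 3 libraries with the most RNA of the cerebellum-restricted list (0.773% and 1.24%). GRID2IP is on that list through its low level in the Control libraries. The T2 replicate 1 held the most of that RNA (2.99%) and had 5.96 CPM of GRID2IP, beside 5.29 CPM in the T2 replicate 2 (0.270%). Whether the level of GRID2IP is related to that RNA was not tested. MFSD11, a membrane transporter family member, and BRIX1 (ENSONIT00000009743), a ribosome assembly factor, followed with edgeR adjusted p-values of 0.745 and 1.00, and DESeq2 called both (adjusted p = 0.000199 and 0.00361). Both were low, at no more than 20.7 and 9.87 CPM in any library and at 0 in several.

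Levels in liver, scaled by library totals only, were set beside those of the brain regions. Of the 163 transcripts higher in the cerebellum by more than 3 on the log2 scale, 134 (82.2%) had a median of less than 1 CPM over the 6 liver libraries, and so had 522 of the 592 higher in the thalamus-pituitary (88.2%). Over all transcripts tested this share was 32.8%. Among all calls, whatever their size, it was 27.0% of the 4039 higher in the cerebellum and 52.1% of the 4441 higher in the thalamus-pituitary. Among the named genes GRID2IP, UCN3, OPRD1 MARCH4 and RIN1 had no count in any liver library. NR5A2 and IL13RA2 were found in liver at 31.8 to 66.4 and 9.73 to 76.0 CPM.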

How the data were processed

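Reads (paired-end, Illumina GAIIx) were cleaned by the authors with in-house scripts, mapped with Bowtie 1.1.2 to the Ensembl coding sequences of Orenil1.0 and quantified with eXpress 1.5. The deposited values are effective counts, estimated counts per transcript adjusted for effective length, 1 file per library, without normalization between libraries. Here they were rounded. Transcripts were filtered by filterByExpr with the regions as groups (minimum count 10, minimum total 15). TMM factors and the quasi-likelihood test came from edgeR 4.0.16 (glmQLFit, glmQLFTest, under R 4.3.3 with limma 3.58.1), with treatment as a covariate, adjusted over all transcripts tested at a threshold of 0.05. The test was checked on simulated counts in which only a small share of the transcripts was changed, equally in both directions. This check does not cover a difference as broad and uneven as the one between the regions. DESeq2 1.42.0, other filters and scalings, thinning to 1568714 counts, a replicate block and leaving out each library were the alternatives. The authors' tables of their own hormone comparisons (fold change, p-value) were not used. Alternative transcripts of a gene, and near-identical paralogs, share reads.

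Named genes are the 12 symbol-paired transcripts with the largest difference in each direction (past the threshold, no overlap, at least 5 CPM), all called members of 4 lists (cerebellar neurons, diencephalic and neuroendocrine, astroglia, thyroid hormone action), up to 4 members with the smallest p of the other lists, 2 identifiers per direction and 3 for the interaction. The libraries, lists and this rule were chosen with earlier results of these data known. A few genes that the rule names are not reported here. Sequences and genome positions were not analysed here.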

Additional observations from a re-analysis of the deposited data

Results flagged for a closer look

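The 6 libraries of a region, over the 3 treatments, were searched for a library far from the others, by the gap to its nearest neighbour divided by the range of all 6. Of 214 such groups (the named transcripts, the library totals and the summed restricted transcripts in each region) 18 had a ratio above Dixon's 95% critical value for 6 values, and 17 of them are given here. For independent values with a normal spread, chance gives about 1 in 20. CPM values are skewed and transcripts can vary together, so the 18 cannot be read against that share.

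In the thalamus-pituitary, the T2 replicate 1 was the highest library for the cerebellum-restricted sum (ratio 0.644), SNAP25 (ENSONIT00000003702, 0.780), UCN3 (0.698) and ENSONIT00000016566 (0.914). The Control replicate 1 was the highest for the globins HBM (2409 CPM, ratio 0.677) and HBG2 (3041 CPM, 0.714), for the collagens COL1A1 (ENSONIT00000008028, 81.2 CPM, 0.756) and COL1A2 (40.8 CPM, 0.645) and for ENSONIT00000026383 (323 CPM, 0.662). The Control replicate 2 was the highest for SHE, a vessel gene (16.5 CPM, 0.835), and the T2 replicate 2 for UBA7 (24.2 CPM, 0.704).

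In the cerebellum, the T3 replicate 2 was the highest for the keratins KRT6B (141 CPM against at most 25.0 CPM in the others, ratio 0.830) and KRT20 (141 CPM against at most 36.5 CPM, 0.759) and for HAPLN4 (20.4 CPM, 0.664). The Control replicate 2 was the highest for IER2 (ENSONIT00000026178, 66.0 CPM, ratio 0.638) and MFSD11 (20.7 CPM, 0.824). The Control replicate 1 was the only library with NR5A2 (0.548 CPM), and its ratio of 1.0 follows from the level of 0 in all the others.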

How the results depend on the processing

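The 8480 calls between the regions became 6681 to 9057 under DESeq2, the exact test, other filters and scalings, unrounded counts, no treatment term and thinning, 7941 to 8472 with 1 library left out, 6564 without the 3 thalamus-pituitary libraries (chosen after seeing the data) and 2386 when a log2 difference over 1 was tested. No call shared with these settings changed direction. Within Control, T2 and T3, DESeq2 called 3463, 3207 and 3276 and the exact test 5086, 5255 and 5123. With 1 library left out these counts ranged from 2987 to 3611, 2142 to 4762 and 2696 to 3651, the lone library of an arm then being assumed to vary like the others. For the interaction, DESeq2 called 8, no filter 4 and leaving out 1 library 0 to 5; it could not be fitted without the 3 libraries. Without these, 1 transcript was called in each of the ribosomal, pancreas and liver lists, against 2 with all libraries. Over all transcripts in place of 500, the median distance was 1.37 between regions, 0.749 within the cerebellum and 0.631 within the thalamus-pituitary. The methods describe 1 group of fish per treatment, so both regions appear to come from the same fish. The main fit treats all libraries as independent. Whether same-numbered pools of the 2 regions held the same fish of a group is not stated. The correlation of the deviations of same-numbered pools was 0.24 in Control, 0.092 with T2 and 0.0017 with T3. With 1 such value per treatment, this cannot decide whether they were paired. In the paper, the Control replicate 1 of both regions had a higher share of mapped reads than the Control replicate 2. A comparable gap between replicates was seen in the cerebellum only with T2 and in the thalamus-pituitary only with T3. Whether this gap bears on the correlations was not tested. With a replicate block 8453 transcripts were called between the regions, 5093, 3861 and 3676 within the treatments and 0 for the interaction. Of 2419 values of named transcripts, 2328 kept their side of the threshold, 60 lost it, 31 gained it and 0 reversed.

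Limits are the 2 pools per region and treatment, a depth at which 1 count is up to 0.637 CPM in the shallowest library, and symbols for 1406 of 16200 tested transcripts.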

Other observations

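Of 62 symbols with at least 2 tested transcripts, 7 had transcripts that were called in opposite directions, and 10 had at least 2 that were called in 1 direction only. Among all tested transcripts with a symbol, 26.7% were called higher in the cerebellum and 19.6% higher in the thalamus-pituitary. At these shares some opposite calls arise between unrelated transcripts, and whether 7 is more than that was not tested. Besides SNAP25, the 7 include STXBP5 (tomosyn, which binds SNARE proteins), with log2 differences of 1.28 (SE 0.20) for ENSONIT00000000827 and -2.03 (SE 0.21) for ENSONIT00000016877. GADD45B, a stress and activity-induced gene, had 22.1 to 51.2 CPM in the cerebellum and 2.60 to 8.74 CPM in the thalamus-pituitary for ENSONIT00000001411, and 2.55 to 8.04 CPM and 12.8 to 31.9 CPM for ENSONIT00000009221, so that in each region a different transcript was the higher of the pair, without overlap between the regions in either. COL4A3BP, a ceramide transfer protein, and BHMT, a methyltransferase of homocysteine, had log2 differences of 0.72 and -1.10 and of 1.00 and -0.37 for their transcripts, and BNIP1 and TIMM44 had ones of 0.69 and -0.77 and of 0.43 and -0.72. Which of these are transcripts of 1 gene and which are paralogs that share a symbol was not examined here. These genes were named after their values were seen.

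Transcripts without any count in the other region were counted in both directions. With a count in all 6 libraries of a region and at least 5 CPM on average there, 25 transcripts had no count in any cerebellum library and 1 had none in any thalamus-pituitary library. The count needs 0 in all 6 libraries. The cerebellum libraries were shallower (median total 4127880.5 against 4915861.5), and RNA of the cerebellum-restricted transcripts was found in every thalamus-pituitary library (0.270% to 2.99%), and the part of either in these counts was not tested.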
